A study of Mus musculus with 12 samples.

Results

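CD5 and CD6 are related surface glycoproteins of T cells that belong to the scavenger receptor cysteine-rich (SRCR) family and are encoded by neighbouring genes. *Cd5* and *Cd6* mRNA was followed in total thymocytes of MED23 null and control mice after αCD3 or mock treatment. The members were taken as every probe set whose only gene symbol on the array is *Cd5* or *Cd6*. This gave 3 probe sets for 2 genes, of 12488 probe sets and 8252 genes on the array. *Cd5* had 1 probe set (93637_at) and *Cd6* had 2 (92203_s_at and 92204_at), and all 3 passed the filter on low signals. After αCD3 every one of the 3 probe sets was lower in both MED23 null mice than in all 4 control mice. The same held for 8.61% of tested probe sets, and no probe set passed a comparison between genotypes in the main fit. The study had named both genes as lower in MED23 null after αCD3 on these same arrays, so this gap is partly selected. On the log2 scale the mock level held 56.9% of the αCD3 difference between MED23 null and control for *Cd5*. It held 55.3% for *Cd6* probe set 92203_s_at, where it was 45.9% against *Lck-Cre* alone. These shares were not tested. The 2 *Cd6* probe sets did not give the same account of the mock level or of the induction.

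MED23 null mice were *Med23flox/flox;Lck-Cre* (n = 2). The controls were *Med23+/+;Lck-Cre* (*Lck-Cre*, n = 2), which carry the Cre transgene and no floxed allele, and *Med23flox/flox* (n = 2), which carry the floxed alleles and no Cre. All were females of 6 to 7 weeks on a C57Bl/6 x 129Sv (F1) background. The thymocytes of each mouse rested for 4 h and then spent 3 h in a well with plate-bound αCD3 or in a mock well, so that each of the 6 mice gave 1 αCD3 array and 1 mock array. Cre from the *Lck* transgene deletes from the late double negative stage on, so cells before that stage keep *Med23*, and RNA came from whole thymus suspensions rather than from sorted subsets. MED23 is a subunit of Mediator, the complex through which DNA-bound activators reach RNA polymerase II. The comparisons ask how far the response to T-cell receptor (TCR) engagement, and the level before it, differ without MED23.

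CD5 associates with the TCR complex and dampens its signal, and its amount on a thymocyte is known to follow the strength of TCR signalling during selection. It is low before selection, higher on mature thymocytes and T cells, and also found on B-1a cells. CD6 binds ALCAM on antigen-presenting and epithelial cells and recruits cytoplasmic adaptors such as SLP-76. CD72 has been proposed as a ligand of CD5. The sequence before the start of mouse *Cd5* is shown because *Cd5* mRNA was higher with αCD3 in every mouse. It is the 250 bases upstream of the RefSeq start, on the minus strand of chr19:10738975-10739224 (GRCm38.p6), with capitals on ETS core motifs (GGAA, on either strand) and E-boxes (CANNTG).
Cd5: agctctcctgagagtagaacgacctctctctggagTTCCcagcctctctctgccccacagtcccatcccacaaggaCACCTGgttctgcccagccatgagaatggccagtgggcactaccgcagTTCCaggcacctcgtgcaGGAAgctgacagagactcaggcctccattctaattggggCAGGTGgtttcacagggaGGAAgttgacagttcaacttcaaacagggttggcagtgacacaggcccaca
The window held 4 ETS cores, which begin 215, 126, 108 and 51 bases before the start, and 93.4% of 32851 RefSeq windows of this length held at least 1. It held 2 E-boxes, at 174 and 69 bases, against 66.2% of windows with at least 1. A loose NF-κB-like pattern matched at 169 and 140 bases, the first of which shares 1 base with the upstream E-box, and 45.8% of windows had a match. All motifs were searched on both strands. There was no match for the EGR motifs GCGGGGGCG and GCGTGGGCG, held by 2.57% and 0.536% of windows, or for the AP-1 motif TGANTCA, held by 6.75%. There was also none for TGACG (17.8%), GGAAA (55.6%), CACCC (52.0%), TGTGGT (14.05%), NGATAA (22.5%) or a CArG-like pattern (67.1%). These matches describe letters in 1 window and are not sites of binding. *Cd6* was not matched in the promoter sequences used here.

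The arrays were alike in scale, and 1 stood apart. The lower quartile of signal was 85.2 on the αCD3 array of *Med23flox/flox* replicate 1, against 50 to 58.2 on the other 11, and its r with the rest averaged 0.905, where the other arrays averaged 0.937 to 0.945. Values without that mouse are given beside the results. The 3′/5′ signal ratio of actin, a sign of RNA integrity, was 1.90 and 1.61 on the MED23 null αCD3 arrays, against 1.35 to 1.41 on the control αCD3 arrays. On mock arrays it was 1.44 and 1.63 in MED23 null and 1.35 to 1.60 in control. The same ratio of *Gapdh* was 0.636 and 0.766 on the MED23 null αCD3 arrays, against 0.599 to 0.648 on the control αCD3 arrays, so that replicate 1 lay within the control range. The *Med23* probe set read 252 and 239 after αCD3 in MED23 null mice, against 310 to 489 in control mice. After mock treatment it read 268 and 207 in MED23 null mice, against 288 to 424 in control mice. Both MED23 null mice were the lowest in each treatment, but the place of this probe set relative to the deleted exons is not given in the sources used here.

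*Cd5* was induced several-fold in every mouse and was lower in MED23 null mice in both treatments. The αCD3 signals of *Cd5* were 1273 and 1547 in MED23 null mice, against 4215 and 3648 in *Lck-Cre* mice and 3948 and 5997 in *Med23flox/flox* mice. The mock signals were 272 and 371 in MED23 null mice, against 606 and 600 (599.6) in *Lck-Cre* mice and 546 and 861 in *Med23flox/flox* mice. The highest MED23 null value lay below the lowest control value in each treatment, and *Med23flox/flox* replicate 2 was the highest mouse in both. The αCD3/mock ratios within a mouse were 4.67 and 4.17 in MED23 null mice, against 6.96 and 6.08 in *Lck-Cre* mice and 7.23 and 6.96 in *Med23flox/flox* mice. The ratios did not overlap either, and the controls lay closer together in ratio (CV 7.35%) than in αCD3 signal (CV 23.7%) or mock signal (CV 21.6%). Ranked by induction among 9478 tested probe sets of the same mouse, *Cd5* stood at 13 and 17 in MED23 null mice, and at 5 to 7 in the 4 control mice.

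**Figure D1:**
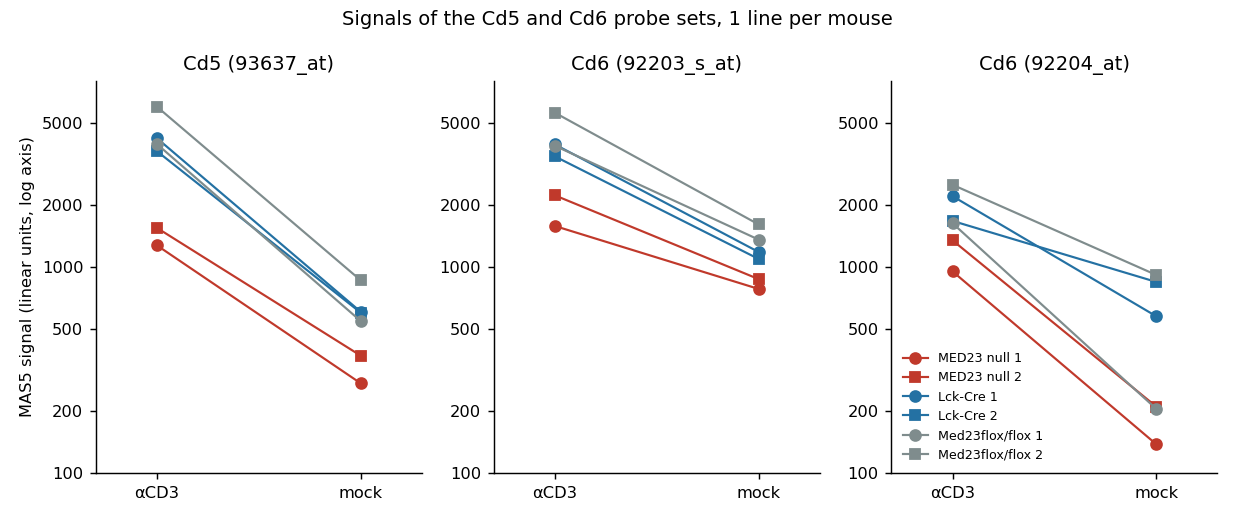
MAS5 signals (linear units on a log axis) of the 3 probe sets after αCD3 and after mock treatment, with 1 line per mouse, red for MED23 null, blue for *Lck-Cre* and grey for *Med23flox/flox*. The red lines lie lowest for *Cd5* and *Cd6* 92203_s_at in both treatments, while the mock value of *Med23flox/flox* replicate 1 falls among the MED23 null values for *Cd6* 92204_at.

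The *Cd6* probe set 92203_s_at followed *Cd5* with a smaller range. Its αCD3 signals were 1582 and 2228 in MED23 null mice, against 3938 and 3445 in *Lck-Cre* mice and 3880 and 5614 in *Med23flox/flox* mice. Its mock signals were 783 and 874 in MED23 null mice, against 1183 and 1094 in *Lck-Cre* mice and 1359 and 1610 in *Med23flox/flox* mice. As for *Cd5*, the MED23 null mice were lowest in both treatments and *Med23flox/flox* replicate 2 was highest. The ratios were 2.02 and 2.55 in MED23 null mice, against 3.33 and 3.15 in *Lck-Cre* mice and 2.86 and 3.49 in *Med23flox/flox* mice. They did not overlap, but the gap between MED23 null replicate 2 and *Med23flox/flox* replicate 1 was narrow, and that control mouse gave the array that stood apart. By induction within the mouse this probe set ranked 384 and 86 in MED23 null mice, and between 28 and 347 in control mice.

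The second *Cd6* probe set, 92204_at, was also lowest in MED23 null mice after αCD3, but spread widely among the control mice after mock treatment. Its αCD3 signals were 951 and 1347 in MED23 null mice, against 2207 and 1673 in *Lck-Cre* mice and 1630 and 2507 in *Med23flox/flox* mice. Its mock signals were 138 and 210 in MED23 null mice, against 576 and 846 in *Lck-Cre* mice and 204 and 914 in *Med23flox/flox* mice. The mock value of *Med23flox/flox* replicate 1 thus lay between the MED23 null mice, and the control mice had a CV of 50.7%. The ratios were 6.91 and 6.42 in MED23 null mice, against 3.83 and 1.98 in *Lck-Cre* mice and 7.97 and 2.74 in *Med23flox/flox* mice. The 2 mice of *Med23flox/flox* stood on either side of the MED23 null mice, so that the order of the ratios was the reverse of that of 92203_s_at for 3 of the 4 control mice. The "_s_at" suffix marks a probe set whose probes can match more than 1 transcript, and which *Cd6* transcripts each probe set reads was not determined here.

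**Figure D2:**
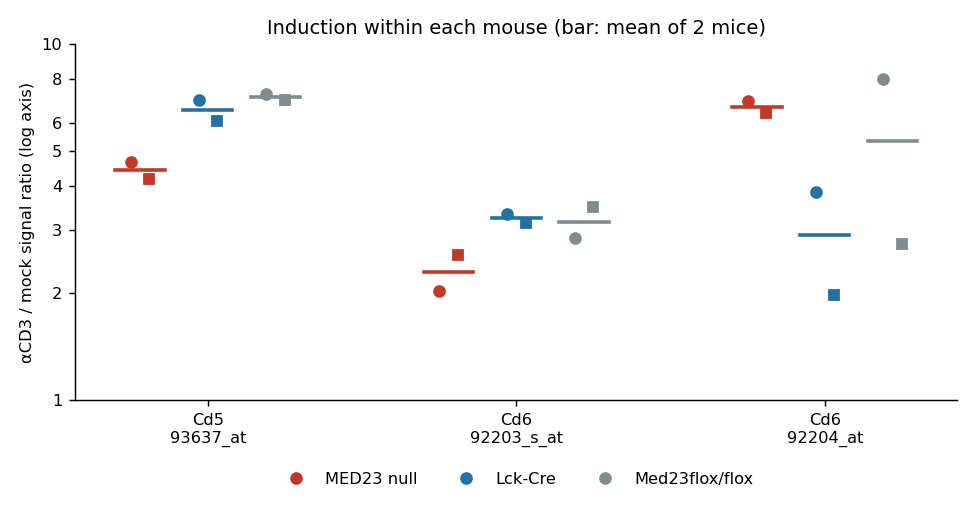
The αCD3/mock signal ratio (log axis) of each mouse, with points for single mice (circles for replicate 1, squares for replicate 2) and bars for the mean of 2 mice. MED23 null mice lie below all control mice for *Cd5* (4.17 to 4.67) and *Cd6* 92203_s_at (2.02 to 2.55), and above both *Lck-Cre* mice for *Cd6* 92204_at (6.42 to 6.91).

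The first comparison asked whether αCD3 changed the members within each genotype. Differences were taken on the log2(signal + 50) scale within each mouse and tested with limma over 9478 probe sets, with Benjamini-Hochberg adjustment and a threshold of 0.05. *Cd5* rose in MED23 null cells by 1.98 (SE 0.16, 95% interval 1.60 to 2.36, limma adjusted p = 0.0338), and in control cells by 2.67 (SE 0.11, 95% interval 2.40 to 2.94, limma adjusted p = 0.000478). It was 1 of 3 probe sets that rose in MED23 null cells, 0.0317% of those tested, with *Nr4a1* and the chemokine gene *Ccl4*, named after its value was seen, and 1 of 14 that rose in control cells, 0.148% of those tested. In size it ranked 8 in MED23 null cells and 4 in control cells. The call in MED23 null cells did not hold when any 1 of the 6 mice was left out (difference 1.92 to 2.04, limma adjusted p 0.0788 to 0.699), whereas the call in control cells held each time.

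*Cd6* probe set 92203_s_at rose in control cells by 1.64 (SE 0.12, 95% interval 1.35 to 1.93, limma adjusted p = 0.00808). In MED23 null cells its difference was 1.14 (SE 0.17, 95% interval 0.72 to 1.55, limma adjusted p = 0.393). The control call was lost without *Lck-Cre* replicate 1 (adjusted p = 0.0815), *Lck-Cre* replicate 2 (adjusted p = 0.0781) or *Med23flox/flox* replicate 2 (adjusted p = 0.0756), with differences of 1.59 to 1.65. Probe set 92204_at passed in neither group, with a difference of 2.42 (SE 0.39, adjusted p = 0.393) in MED23 null cells and 1.73 (SE 0.27, adjusted p = 0.101) in control cells. *Cd5* and 92203_s_at, but not 92204_at, are in the list of αCD3-induced genes that the study drew up from these same arrays, so their direction is not independent evidence. Without *Med23flox/flox* replicate 1 the induction in control cells was 2.65 for *Cd5*, 1.69 for 92203_s_at and 1.40 for 92204_at.

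The induction itself was then compared between genotypes. The mean *Cd5* ratio was 4.42 ± 0.355 in MED23 null mice and 6.81 ± 0.501 in control mice (SD, n = 2 and 4), so that MED23 null cells kept 65.0% of the control ratio. The log2 difference in induction was -0.69 (SE 0.20, 95% interval -1.16 to -0.22, limma adjusted p = 0.849), and it was -0.62 against *Lck-Cre* and -0.76 against *Med23flox/flox*. For *Cd6* 92203_s_at the mean ratio was 2.29 ± 0.374 in MED23 null mice and 3.20 ± 0.270 in control mice, or 71.3%. Its difference in induction was -0.50 (SE 0.21, 95% interval -1.01 to 0.00, limma adjusted p = 0.971), with -0.52 against *Lck-Cre* and -0.49 against *Med23flox/flox*. For 92204_at the direction was opposite, at 0.69 (SE 0.48, 95% interval -0.44 to 1.82, limma adjusted p = 1.00), with 1.02 against *Lck-Cre* and 0.36 against *Med23flox/flox*. None of these passed the test.

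No probe set passed in any comparison between genotypes, 0% of those tested in each, while 486 had an unadjusted p under 0.05 for the difference in induction between MED23 null and control. Of the tested probe sets 7.42% had both MED23 null mice below all 4 control mice in induction, as *Cd5* and 92203_s_at did. An exact permutation test of the 2 MED23 null against the 4 control mice has 15 splits. Its two-sided p, taken here by doubling the smaller tail, cannot fall below 0.133, which is the value it gave for both. For 92204_at this exact permutation p was 0.4. Counted on the absolute difference, the smallest exact permutation p is 0.0667. That version gave 0.0667 for both and 0.333 for 92204_at. Without *Med23flox/flox* replicate 1 the differences in induction were -0.67 for *Cd5*, -0.55 for 92203_s_at and 1.02 for 92204_at.

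After mock treatment both MED23 null mice lay below all control mice for *Cd5* and *Cd6* 92203_s_at but not for 92204_at, and no difference passed the test. The mean *Cd5* mock signal was 322 ± 69.7 in MED23 null mice and 653 ± 141 in control mice, which is 49.2% of control, or 53.4% of *Lck-Cre* and 45.7% of *Med23flox/flox*. On the log2 scale the difference was -0.91 (SE 0.22, 95% interval -1.44 to -0.38, limma adjusted p = 0.389), with -0.83 against *Lck-Cre* and -1.0 against *Med23flox/flox*. *Cd6* 92203_s_at averaged 828 ± 64.4 in MED23 null mice and 1312 ± 227 in control mice, or 63.1%. Its log2 difference was -0.62 (SE 0.19, 95% interval -1.08 to -0.16, limma adjusted p = 0.522), with -0.44 against *Lck-Cre* and -0.80 against *Med23flox/flox*. For both probe sets the 2 MED23 null mice lay below all 4 control mice, which 8.44% of tested probe sets did. *Cd6* 92204_at averaged 174 ± 50.9 in MED23 null mice and 635 ± 322 in control mice, a log2 difference of -1.46 (SE 0.53, 95% interval -2.73 to -0.19, limma adjusted p = 0.629). It was -1.76 against *Lck-Cre*, without overlap, and -1.17 against *Med23flox/flox*, with overlap. Without *Med23flox/flox* replicate 1 the mock differences were -0.99 for *Cd5*, -0.60 for 92203_s_at and -1.88 for 92204_at. The two-sided exact permutation p was 0.133 for the first pair and 0.267 for 92204_at, and 701 probe sets had an unadjusted p under 0.05 for this comparison.

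Genes of mature single positive thymocytes were lower in the same mock arrays. Of 11 markers listed, 8 were tested, and all 8 lay below 0 in MED23 null minus control. Of all tested probe sets 52.2% lay above 0 in this comparison. The median log2 difference of the 8 was -1.06, against 0.01 over all tested probe sets, and none of the 8 passed the test. The list was chosen with earlier results known, and the study reported *Cd52* as lower on these same mock arrays. It also reported lower *Klf2*, and a tendency to lower *S1pr1*, in CD4 single positive cells. The shared sign is therefore not independent evidence. The summed signal of the 8 was 12152 to 13375 in MED23 null and 16299 to 21838 in control mock arrays. *Ccr7*, a homing receptor of mature thymocytes, differed by -1.26, and *Cd52*, a glycoprotein of mature lymphocytes, by -1.24. *Klf2*, a transcription factor of egressing thymocytes, differed by -1.23, and its mock signals were 37 and 44 in MED23 null mice, against 415 and 343 in *Lck-Cre* mice and 48 and 64 in *Med23flox/flox* mice, so that only *Lck-Cre* was far above the rest. In whole thymus suspensions fewer cells of a type and less RNA per cell cannot be told apart from these arrays. By flow cytometry the study reported normal proportions of single positive cells. In isolated CD4 single positive thymocytes it reported lower *Klf2* and *Cd52* mRNA without MED23. The part of mature single positive markers in the mock level of *Cd5* and *Cd6* was not tested. After αCD3 the same sum was 12201 to 12764 in MED23 null and 14419 to 19067 in control arrays.

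Markers of other cells were checked in the same way. For the labelled tissue, 12 of 13 thymocyte genes were on the array and all 12 passed the filter, with summed mock signals of 101809 to 107058 in MED23 null and 120023 to 125181 in control. The 8 measured double positive markers summed to 67045 to 68303 in MED23 null and 76483 to 81700 in control mock arrays. *Rag1* and *Dntt* had the highest signals in this sum. In MED23 null minus control 5 of the 8 lay below 0, with a median of -0.14 over the 8. The other 3, *Cd4* (0.29), *Cd24a* (0.17) and *Cd1d1* (0.13), lay above 0. B cell markers were of interest because B-1a cells carry CD5. They summed to 7897 to 8183 in MED23 null and 6607 to 7208 in control mock arrays. The counted *Ighm* probe set alone read 5749 and 6045 in MED23 null and 5044 to 5323 in control mock arrays. Dimmer *Ighm* probe sets lay on both sides of 0. Of 6 B cell markers tested, 5 lay above 0 and *Pax5* below it (-0.21), with *Cd22* and *Cd72* under the filter. The 9 myeloid markers summed to 3742 to 3857 in MED23 null and 2347 to 3881 in control, and the 3 erythroid markers to 14734 to 37134 in MED23 null and 6258 to 16619 in control. The 5 epithelial markers were all under the filter. The part of these cells in the results was not tested.

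After αCD3 the level combines the mock level and the induction. The mean *Cd5* signal was 1410 ± 194 in MED23 null mice and 4452 ± 1056 in control mice, which is 31.7% of control, or 35.9% of *Lck-Cre* and 28.4% of *Med23flox/flox*. The log2 difference was -1.60 (SE 0.24, 95% interval -2.18 to -1.03, limma adjusted p = 0.394), the third lowest of all tested probe sets. It was -1.45 against *Lck-Cre* and -1.76 against *Med23flox/flox*. *Cd6* 92203_s_at averaged 1905 ± 457 in MED23 null mice and 4219 ± 955 in control mice, or 45.1%, with a log2 difference of -1.12 (SE 0.26, 95% interval -1.73 to -0.52, limma adjusted p = 0.522). *Cd6* 92204_at averaged 1149 ± 279 in MED23 null mice and 2004 ± 425 in control mice, or 57.3%, with a log2 difference of -0.77 (SE 0.25, 95% interval -1.37 to -0.17, limma adjusted p = 0.698). All 3 probe sets had both MED23 null mice below all 4 controls, as 8.61% of tested probe sets did. *Cd5* and 92203_s_at did so in both treatments, as 1.9% did. The study chose *Cd5* and *Cd6* on these same arrays, among αCD3-induced genes that were lower in MED23 null. Their low αCD3 values and the rank of *Cd5* are thus partly selected. No probe set passed here, and 584 had an unadjusted p under 0.05. With the variance allowed to depend on the mean signal, *Cd5* was 1 of 5 that passed (limma adjusted p = 0.0120). Without *Med23flox/flox* replicate 1 the differences were -1.65 for *Cd5*, -1.15 for 92203_s_at and -0.86 for 92204_at. Over all 6 mice the two-sided exact permutation p was 0.133 for each, the smallest possible when the smaller tail is doubled.

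On the log2 scale the difference after αCD3 is the sum of the mock difference and the difference in induction, so it can be divided. For *Cd5* the mock level held 56.9% of the αCD3 difference, and the share was also 56.9% against *Lck-Cre* and against *Med23flox/flox*. For *Cd6* 92203_s_at it held 55.3%, with 45.9% against *Lck-Cre* and 62.2% against *Med23flox/flox*. For 92204_at the mock difference was 189% of the αCD3 difference, since the induction ran the other way. Without the pseudocount the shares were 62.1%, 56.9% and 212%. These shares carry the errors of both differences and were not tested.

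**Figure D3:**
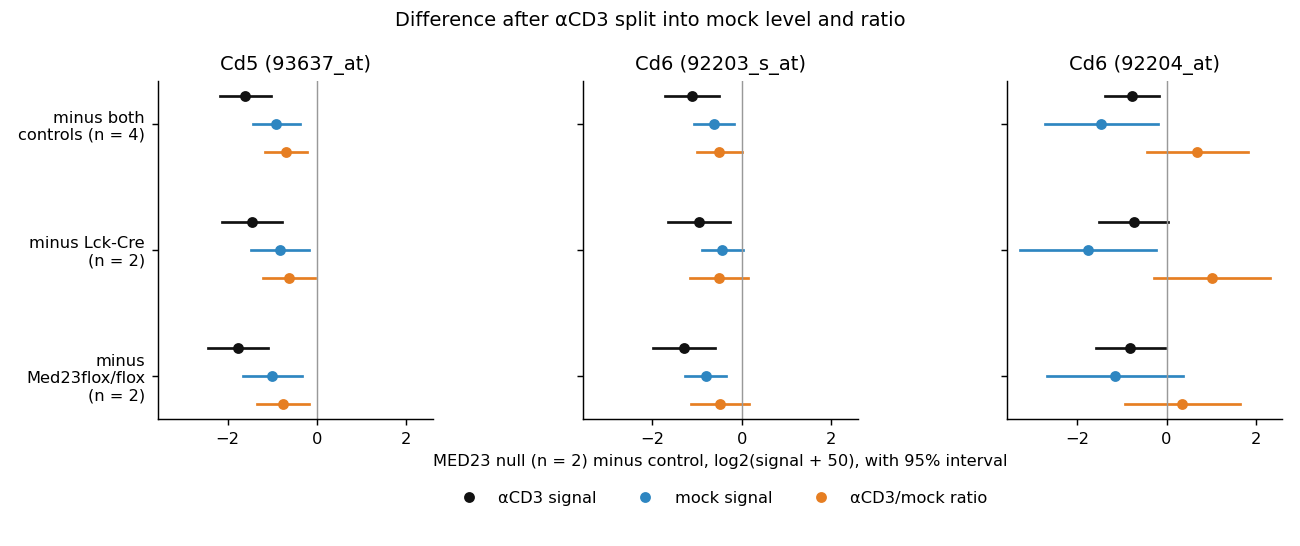
MED23 null minus control in log2(signal + 50), with 95% intervals from limma, for the αCD3 signal (black), the mock signal (blue) and the αCD3/mock ratio (orange), against both controls, *Lck-Cre* or *Med23flox/flox*. For *Cd5* all 3 measures lie below 0 against each reference (-1.60, -0.91 and -0.69 against both), and for *Cd6* 92204_at the ratio lies above 0 (0.69).

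The control genotypes were set against each other to see how far the Cre transgene or the floxed allele moved the members. *Cd5* in *Lck-Cre* minus *Med23flox/flox* differed by -0.31 after αCD3 (95% interval -0.98 to 0.36), by -0.18 after mock treatment (95% interval -0.83 to 0.48) and by -0.13 in induction (95% interval -0.72 to 0.45). *Cd6* 92203_s_at differed by -0.34 after αCD3, -0.36 after mock treatment and 0.03 in induction (95% interval -0.62 to 0.68). *Cd6* 92204_at differed by -0.07, 0.60 and -0.67, the last with an interval of -1.96 to 0.63. None passed (limma adjusted p 0.866 to 0.993 over these 9 values). Each estimate for *Cd5* was smaller than the MED23 null difference from either control, but the intervals are wide with 2 mice a genotype.

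The pattern of each member over the 12 arrays was compared with that of all other probe sets with a single symbol, by Pearson's r of log2(signal + 50). The arrays share 6 mice and 1 treatment contrast, so r is a description. *Cd6* 92203_s_at was the most like *Cd5* (r = 0.989). It was followed by *Nab2*, a corepressor of EGR factors (r = 0.989), *Ier2*, an immediate early gene (r = 0.989), *Ptpn6*, which encodes the phosphatase SHP-1 (r = 0.968), and *Lmna*, which encodes lamin A/C (r = 0.955). The same 4 genes after *Cd5* itself (r = 0.989) were nearest to *Cd6* 92203_s_at, with r of 0.958 to 0.988. The second *Cd6* probe set was nearest to *Trav9d-3*, a TCR alpha variable segment (r = 0.953), *Nop56*, a nucleolar protein (r = 0.950), *Lta*, a cytokine of the TNF family (r = 0.931), *Cd5* (r = 0.917) and *Nab2* (r = 0.911). Its r with the other *Cd6* probe set was 0.881, below its r with *Cd5*. The probe sets of *Lta* and of *Lmna* disagreed in induction. A brighter *Lta* probe set had -0.17 in MED23 null and -0.005 in control cells, against 1.38 and 1.04 for the one named. A dimmer *Lmna* probe set had -0.57 in MED23 null and -0.05 in control cells, against 0.51 and 0.70.

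**Figure D4:**
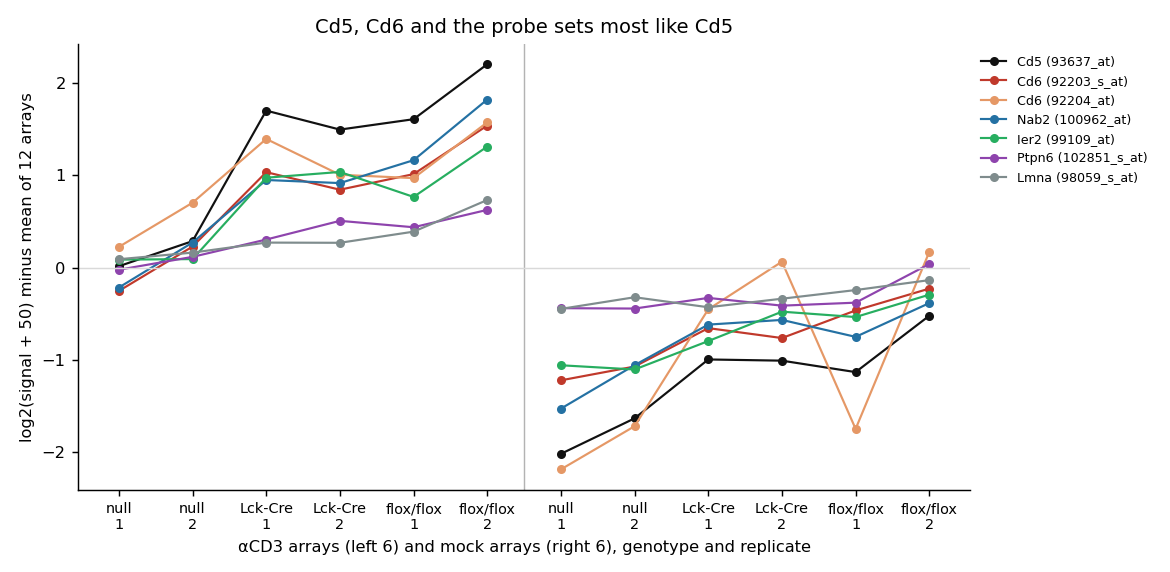
log2(signal + 50) of each probe set minus its mean over the 12 arrays, with the αCD3 arrays of the 6 mice on the left and their mock arrays on the right. *Cd5*, *Cd6* 92203_s_at, *Nab2* and *Ier2* run together, *Ptpn6* and *Lmna* follow with a smaller range, and *Cd6* 92204_at departs from them most at the mock array of *Med23flox/flox* replicate 1.

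The 2 genes that followed, *Nab2* and *Ier2*, were also lower in both MED23 null mice than in all control mice in each treatment. The same held for 1.9% of tested probe sets, and neither gene had a call between genotypes. Both were picked for their likeness to *Cd5* over these arrays, so a similar gap follows in part from the choice. *Nab2* read 404 and 587 after αCD3 in MED23 null mice and 946 to 1819 in control mice. After mock treatment it read 133 and 203 in MED23 null mice and 263 to 354 in control mice. Its log2 difference was -1.19 after αCD3 and -0.71 after mock treatment, and it rose in control cells by 1.80 (limma adjusted p = 0.0108). *Ier2* differed by -0.93 after αCD3 and -0.56 after mock treatment, and it rose in control cells by 1.55 (limma adjusted p = 0.00976). *Nab2* and *Ier2* were, like *Cd5*, among the genes the study chose on these arrays.

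The ligands of the pair were weakly measured in this cell suspension. *Cd72* did not pass the filter, with signals of 6 to 119 over the 12 arrays. *Alcam* read 13 to 160 and *Cdcp1*, a second CD6 ligand also called CD318, 31 to 323, and neither passed in any comparison. Of 19 cytoplasmic partners 14 were on the array and 13 were tested, and none passed. Their median difference in induction was -0.06 and their median difference after mock treatment -0.07, against -0.02 and 0.01 over all tested probe sets.

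*Ptpn6*, whose SHP-1 product has been linked to CD5, was the partner with the largest induction, at 0.49 in MED23 null and 0.74 in control cells (limma adjusted p = 0.851 and 0.104). It read 836 and 926 after αCD3 in MED23 null mice, against 1062 to 1340 in control mice, and 613 and 612 after mock treatment in MED23 null mice, against 626 to 875 in control mice. *Lcp2*, which encodes SLP-76, an adaptor bound by CD6, had an induction of 0.21 in MED23 null and 0.08 in control cells. *Fyn*, a Src family kinase near the TCR, had the largest difference after αCD3, at -0.67, with 554 and 567 in MED23 null mice against 747 to 1066 in control mice. *Csnk2b*, a subunit of the CK2 kinase that binds CD5, was not measured by a probe set with that single symbol.

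Of 16 other members of the SRCR family, 8 were on the array and 6 were tested, and none passed. Their induction had a median of -0.04 and a range of -0.61 to 0.72 in MED23 null cells, and a median of -0.11 and a range of -0.21 to 0.62 in control cells. Of 12 other inhibitory receptors of lymphocytes 6 were tested and none passed. *Pdcd1*, which encodes PD-1, had the largest value in MED23 null cells, at 0.61 against 0.72 in control cells, and *Cd160* the largest in control cells, at 0.34 in MED23 null and 1.26 in control cells (limma adjusted p = 0.293 for *Cd160* in control). *Cd5* had a larger induction than any of these 6 receptors in each group.

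Genes that report TCR signalling gave a fuller background for the induction. Of 13 listed 10 were tested, and 1 rose in MED23 null cells (*Nr4a1*) and 4 in control cells (*Nr4a1*, *Egr2*, *Itm2a* and *Nab2*). For *Tnfrsf9* a dimmer probe set than the one counted here also rose in control cells, so its probe sets disagree. The difference in induction was below 0 for all 10, with a median of -0.48, against -0.02 over all tested probe sets. Of all tested probe sets 47.7% lay above 0 in it. The difference after αCD3 was below 0 for all 10, with a median of -0.51, while 48.1% of all tested probe sets lay above 0. A second *Nr4a2* probe set, not counted here, lay above 0 in both, at 0.55 in induction and 0.23 after αCD3. Both *Nr4a2* probe sets were dim, with mean signals of 106 for the second and 142 for the counted one. None of these differences passed. *Egr1*, *Egr2* and *Nab2* are among the genes the study chose on these same arrays as less expressed in MED23 null after αCD3. The shared sign is thus partly selected. *Nr4a1*, an orphan nuclear receptor induced by TCR signals, differed between αCD3 and mock by 2.93 in MED23 null and 3.41 in control cells. *Egr2*, an immediate early zinc finger factor, differed by 1.53 in MED23 null and 3.01 in control cells. After mock treatment the reporters lay on both sides of 0, with 5 of 10 below it and a median of -0.01, and *Nab2* was the lowest at -0.71. The mock difference of *Cd5* (-0.91) was lower than that of any of the 10.

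The chromosome 19 neighbourhood of the pair was examined because *Cd5* and *Cd6* lie next but 1 to each other in the RefSeq gene order, with *A430093F15Rik* between them. Of 21 annotated neighbours, 10 on each side and the gene between, 7 were on the array and 6 were tested. None passed, and their induction in control cells had a median of -0.04 and a range of -0.45 to 0.23. *Vps37c*, the gene next to *Cd5* on the far side from *Cd6* and a component of the ESCRT-I sorting complex, had an induction of 0.01 in MED23 null and 0.00 in control cells. *Tmem109*, the nearest measured gene beyond *Cd6*, had -0.25 in MED23 null and 0.23 in control cells. *Zp1*, an egg coat glycoprotein gene, had the largest value in MED23 null cells, 1.26, with -0.45 in control cells. All 3 probe sets of *Cd5* and *Cd6* had a larger induction in control cells than each of these 6 genes, but in MED23 null cells 92203_s_at (1.14) lay below *Zp1* (1.26), and 15 of the 21 neighbours were not tested.

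**Figure D5:**
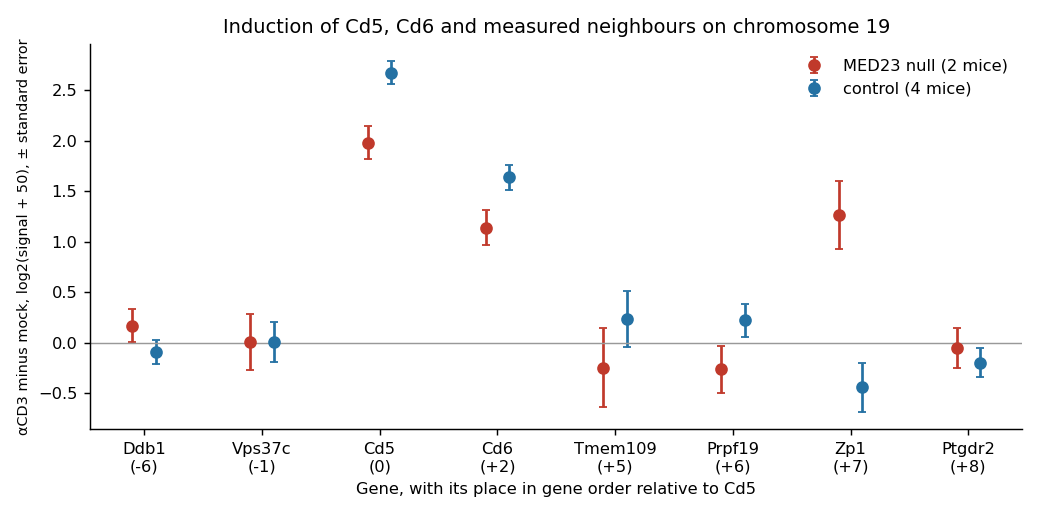
αCD3 minus mock in log2(signal + 50) with standard errors for *Cd5*, *Cd6* (92203_s_at) and the 6 measured neighbours in gene order, with MED23 null in red left of control in blue. In MED23 null cells *Cd5* (1.98) lies above all neighbours and *Cd6* (1.14) above all but *Zp1* (1.26), and in control cells *Cd5* (2.67) and *Cd6* (1.64) lie above all of them (-0.45 to 0.23).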

How the data were processed

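Total thymocyte RNA of 6 mice, each with αCD3 and mock treatment, was measured on Affymetrix Murine Genome U74Av2 arrays. The deposited values are linear intensities, MAS5 signals per probe set computed by the authors, and the study scaled its arrays in Spotfire. Signals were scaled here to the mock array of *Lck-Cre* replicate 1 by a mean trimmed by 2% at each end, which changed them by at most 0.00603%, and taken to log2 after adding 50. After 66 control probe sets were removed from 12488, 9478 had a mean of at least 100 in at least 1 of 6 conditions. Arrays have no read depth, and their number limits the precision.

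Induction was the αCD3 minus mock difference within each mouse, paired by the labels, which name the same animal. The deviations of the 2 arrays of a mouse correlated at 0.061 in MED23 null, 0.094 in *Lck-Cre* and 0.149 in *Med23flox/flox*. Means of MED23 null and control mice, or of the 3 genotypes, were tested with limma 3.58.1 in R 4.3.3, with mock and αCD3 arrays fitted apart, in 14 comparisons, with Benjamini-Hochberg adjustment over 9478 probe sets. The fits were also run on simulated data that had no mouse effect. Differences were planted there in induction and in the level of MED23 null arrays, but none in induction between genotypes. Exact permutation tests used scipy 1.17.1.

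Symbols came from the platform annotation, with 10855 probe sets of 1 symbol, 396 of several and 1237 of none. Named genes are the members, the 5 probe sets most like each, up to 5 genes per list with the largest difference in the comparison described, a few ligands and partners named whatever their values, and measured chromosome 19 neighbours. List genes and neighbours were read from the probe set with the highest mean signal, whereas likeness was ranked over all tested probe sets with a single symbol. The members and lists were chosen with earlier results of these data known. RefSeq sequences and gene order are those of GRCm38.p6. Alternatives covered the pseudocount, the filter, the scaling, the variance trend, blocks and each mouse left out.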

Additional observations from a re-analysis of the deposited data

How the results depend on the processing

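The members kept their direction between MED23 null and control under every alternative run, and calls moved as follows. Probe sets that rose in MED23 null cells numbered 3, but 1 with a pseudocount of 1, no filter, quantile normalization or a variance trend, 0 with no replicate block (arrays unpaired), and 0 to 1 without 1 mouse. In control cells 14 rose, but 27 with a pseudocount of 100, 33 with a filter of 200, 4 with a variance trend, 42 with no replicate block, and 3 to 9 without 1 mouse. Between genotypes the count of 0 became 1 (filter of 200), 2 (variance trend) and 2 (mouse as a random block) for mock MED23 null minus control. It became 3 (variance trend) and 1 (random block) for mock MED23 null minus *Lck-Cre*, 5 (variance trend) for αCD3 MED23 null minus control, 1 (no replicate block) for the difference in induction of *Lck-Cre* minus *Med23flox/flox*, and 1 (random block) for mock *Lck-Cre* minus *Med23flox/flox*.

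The *Cd5* induction in MED23 null cells lost its call with a pseudocount of 1 (2.14, limma adjusted p = 0.0652), no filter (1.98, 0.0530), quantile normalization (1.98, 0.0520), a variance trend (1.98, 0.0873), no replicate block (1.98, 0.0846) and without any 1 mouse (1.92 to 2.04). As the log2 of the mean linear ratio it was 2.15, and 2.74 for *Cd6* 92204_at. *Cd6* 92203_s_at in control cells lost its call with a variance trend (1.64, limma adjusted p = 0.0722) and without some mice (1.59 to 1.69 over the 6). *Cd5* after αCD3, MED23 null minus control, passed with a variance trend (-1.60, limma adjusted p = 0.0120).

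Signs turned in *Lck-Cre* minus *Med23flox/flox* for the induction of 92203_s_at (-0.061 with quantile normalization, and -0.12 to 0.17 without 1 mouse), for 92204_at after αCD3 (-0.37 to 0.23) and mock (-0.36 to 1.56), and for *Cd5* after mock (-0.48 to 0.13). The MED23 null minus *Med23flox/flox* induction of 92204_at ran from -0.30 to 1.01. The cause was not tested. Mouse numbers shared across genotypes are only numbers (r -0.01 to 0.12), and blocking on them changed no member's call.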
